A study of Mus musculus with 16 samples.

Results

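The comparison described here set 2 MC38 tumors that were labelled aPD-1 responders, mouse numbers 15 and 16, against 8 MC38 tumors from mice given control IgG, mouse numbers 1 to 8. The members were taken from the sample labels, and these 10 tumors were part of a bulk RNA-seq series of 16, in which the other 6 were aPD-1 non-responders. MC38 is a mouse colon adenocarcinoma cell line, and each mouse, a female C57BL/6 aged 6 to 8 weeks, received its cells under the skin of the right flank. Tumors of 150 to 250 mm3 on day 16 were enrolled, 200 µg of control IgG or of an antibody to PD-1 (aPD-1) was given on days 16 and 20, and tumors were taken on day 21.

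All tumors came from 1 cell line, carried no engineered allele, and were 1 per mouse. Each tumor was divided, and RNA came from 2 sections of 100 µm of the frozen piece. Per the study's methods the response label followed staining of CD8 T cells in the fixed piece of the same tumor, so T cell genes are not independent of the label. Both responders received aPD-1 and every control received IgG, so treatment and response status cannot be told apart in this contrast. The 6 non-responders, which received the same antibody, are given where they help to read a value. In bulk RNA, fewer cells of a type and less RNA per cell cannot be told apart.

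PD-1 is an inhibitory receptor that T cells put on their surface after activation, and its ligand PD-L1 is induced by interferon gamma on tumor and myeloid cells. Antibodies that block PD-1 release this restraint, and CD8 T cells then kill with granzymes and perforin and secrete interferon gamma. Interferon gamma in turn raises chemokines such as CXCL9, guanylate binding proteins, and the genes of antigen presentation. B cells, plasma cells and lymphatic or high endothelial vessels make up tertiary lymphoid structures and lymph nodes, and may lie inside or beside a tumor.

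The 10 libraries held between 26603497 and 38031440 counts, with 31724415 in responder 15 and 33713608 in responder 16. The share of counts on mitochondrially encoded genes was 2.85% and 3.25% in the responders, 7.60% in IgG tumor 1, and at most 3.21% in the other controls. In IgG tumor 3, 20.4% of counts fell on 1 ribosomal RNA-like transcript, CT010467.1, against at most 0.489% in any other tumor. Epithelial genes that define the colon were nearly absent from the IgG tumors: Cdx1, Cdx2 and Vil1 had at most 7 counts in any of the 10 tumors, and the keratin Krt8 had a median of 0.273 CPM, which is the count scaled to the TMM-adjusted library size and the unit of every level below.

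Of 18251 genes tested with edgeR's quasi-likelihood test, 2612 were called higher in responders (14.3% of genes tested) and 117 were called lower (0.641%). To be called, a gene had to reach a Benjamini-Hochberg adjusted p under 0.05 and to change by more than 1 on the log2 scale. The median log2 fold change of all genes was -0.02. Counts of called genes in the lists below are to be read beside the shares of 14.3% and 0.641%. Of the genes called higher, 2392 had both responders above all 8 controls, and of those called lower, 102 had both responders below all 8. Over all genes the shares without overlap were 19.3% above and 9.7% below. The genes called higher were 85.9% protein coding and included 134 antigen receptor segments and constant regions, whereas the genes called lower were 69.2% protein coding and included none.

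The 2 responders did not resemble each other in every gene group, so each was also set alone against the controls, with the lone tumor assumed to vary as the other groups do. Responder 15 alone gave 2724 genes called higher (14% of 19434) and 225 called lower (1.16%). Responder 16 alone gave 1204 called higher (6.28% of 19162) and 39 called lower (0.204%). A core of 1076 genes was called higher in each responder alone, and 13 genes were called lower in each alone. Among the 2612 genes called higher, 2229 were at a higher level in responder 15 and 383 at a higher level in responder 16, with a median difference of 0.81 on the log2 CPM scale. The scatter of both responders shows how the groups of genes divide.

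**Figure D1:**
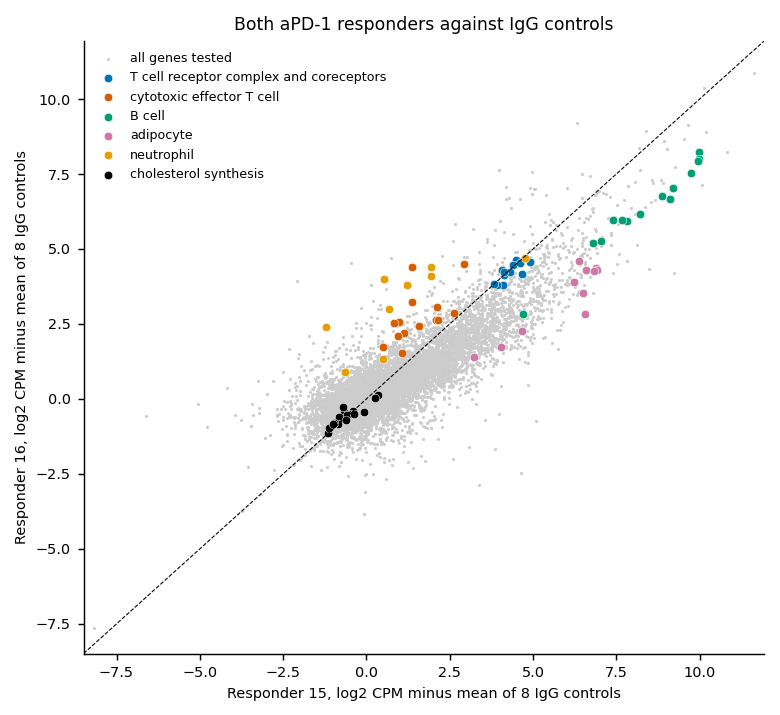
Difference of log2 CPM from the mean of the 8 IgG controls, for responder 15 (x axis) and responder 16 (y axis), with a point for each of 18251 genes tested and the genes of 6 lists in color. T cell receptor complex genes lie on the diagonal, B cell and fat cell genes lie to the right of it, and cytotoxic genes lie above it.

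T cell identity genes were high to the same degree in both responders. All 12 genes of the T cell receptor complex and coreceptors were called higher, with a median log2 fold change of 4.24 and a range from 3.63 to 4.72, and all 12 were also called in each responder alone. Their summed level was 330 CPM in responder 15 and 309 CPM in responder 16, against 11.5 to 36.6 CPM in the controls and 17.4 to 44.3 CPM in the non-responders. Neither responder was consistently ahead: 7 of the 12 genes were higher in responder 15.

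Cd8a, a chain of the CD8 coreceptor of cytotoxic T cells, was at 59.7 CPM in responder 15 and 59.2 CPM in responder 16. The 8 controls ranged from 1.94 to 11.5 CPM with a median of 3.74, so the groups did not overlap. The log2 fold change was 3.63 ± 0.43 (SE, adjusted p = 7.2e-06). An exact two-sided permutation test of the CPM values gave p = 0.0222, the smallest that 2 against 8 tumors allow. The response label followed CD8 staining of the same tumors, so neither p-value tests Cd8a independently of the label. Cd4, the coreceptor of helper T cells, was at 44.8 and 35.4 CPM against 0.684 to 2.22 CPM in the controls (log2 fold change 4.72 ± 0.33, adjusted p = 2.4e-08). Both coreceptors rose, and both responders stood above all controls for each.

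The genes that carry the T cell receptor signal into the cell behaved alike. Of 14, 13 were called higher (median log2 fold change 3.30), and the last, Fyn, passed the adjusted p but not the fold threshold (0.67 ± 0.14). Lck, the kinase that starts the signal, was at 57.2 and 49.2 CPM against 1.91 to 4.16 CPM in the controls (4.21 ± 0.25, adjusted p = 5.9e-09). Themis, which sets the strength of that signal, was at 15.5 and 20.1 CPM against 0.383 to 1.14 CPM. Of the 17 T cell receptor beta variable segments tested, 16 were called higher (median 4.78). Together the 17 summed to 0.180 to 1.11 CPM in the controls, against 11.8 and 13.6 CPM in the responders. Segments so low in the controls could pass the filter through the responders, so a call was close to fixed once a segment was tested. Of the 2 alpha variable segments tested, 0 were called. Reads divide among near-identical segments, so single segments are not described.

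Genes of naive and recirculating lymphocytes were higher. Of 10, 9 were called higher, with a median of 2.26. Ccr7, the receptor for the lymph node chemokines, was at 44.8 and 38.8 CPM against 2.16 to 3.91 CPM (3.78 ± 0.28). Lef1, a transcription factor of naive T cells, was at 18.0 and 14.6 CPM against 3.63 to 15.8 CPM and was not called (adjusted p = 0.066), but it was called without IgG tumor 1 (1.26, adjusted p = 0.0096). Regulatory T cell genes were higher too. Of 10, 9 were called higher (median 1.64), and Foxp3, their defining transcription factor, was at 5.59 and 3.97 CPM against 0.360 to 1.05 CPM (2.56 ± 0.35, adjusted p = 4.3e-05).

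Inhibitory receptors split by gene. Of 12 genes of the list, 7 were called higher (median 1.62), and 4 without responder 15. Pdcd1, which encodes PD-1 itself, was at 7.36 and 9.76 CPM against 1.35 to 4.63 CPM (1.84 ± 0.53, adjusted p = 0.018). In the non-responders it ranged from 1.02 to 7.92 CPM, which overlaps responder 15, and responders against non-responders did not pass for it (1.16 ± 0.57, adjusted p = 0.18). Without responder 15 or without responder 16 the change of Pdcd1 from the controls was 1.96 and 1.57, and neither was called (adjusted p = 0.11 and 0.14). Ctla4, a second checkpoint receptor, was at 10.4 and 9.39 CPM against 1.25 to 2.87 CPM (2.26 ± 0.26, adjusted p = 7.4e-06). Btla, an inhibitory receptor that B cells carry as well as T cells, was at 149 and 60.1 CPM against 0.494 to 2.24 CPM, with the largest change of the list (6.32 ± 0.34). Havcr2, Tnfrsf9, Cd244a and Nr4a2 were not called. Entpd1, the ectonucleotidase CD39, was not called either (adjusted p = 0.079), but was called without IgG tumor 8 (1.13, adjusted p = 0.042). For Havcr2, the TIM-3 receptor, responder 15 lay inside the control range at 16.7 CPM and responder 16 above it at 27.9 CPM.

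Killing genes were high mostly in responder 16. Of 14 cytotoxic effector genes 12 were called higher (median 2.11), but responder 15 alone gave 4 calls (median 1.13) and responder 16 alone gave 12 (median 2.44). The level was higher in responder 16 for 14 of the 14. Gzma, a granzyme, was at 2.36 CPM in responder 15, inside the control range of 0.228 to 2.6 CPM, and at 20.1 CPM in responder 16. Gzmb, the granzyme that triggers cell death through caspases, was at 20.6 CPM in responder 15, below the highest control at 24.8 CPM, and at 66.6 CPM in responder 16. The pooled log2 fold change of Gzmb was 1.67 ± 0.52 (adjusted p = 0.026), and without responder 16 it was 0.53 (adjusted p = 0.66). Gzma likewise fell from 3.39 to 1.10 (adjusted p = 0.34) without responder 16.

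Ifng, which encodes interferon gamma, was at 2.01 CPM in responder 15 and 7.40 CPM in responder 16, against 0.360 to 1.97 CPM in the controls (2.44 ± 0.55, adjusted p = 0.0033). Both responders were above the controls, responder 15 only just, and without responder 16 Ifng was not called (1.15, adjusted p = 0.31). Prf1, the pore-forming perforin, was at 9.64 and 21.5 CPM against 1.78 to 11.8 CPM and was not called (adjusted p = 0.077), but it was called without IgG tumor 4 (1.58, adjusted p = 0.037). Tbx21, the transcription factor that drives these genes, was similar in both responders at 2.25 and 2.64 CPM against 0.172 to 0.665 CPM (2.78 ± 0.42, adjusted p = 1.1e-04).

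Natural killer cell genes followed the same division. Of 10, 8 were called higher, with 0 edgeR calls in responder 15 alone and 8 in responder 16 alone. At an unadjusted p below 0.05, responder 15 alone had 4 genes of the list higher. Ncr1, the receptor that defines these cells, was at 2.07 and 3.43 CPM against 0.532 to 1.61 CPM (1.56 ± 0.40, adjusted p = 0.0082), and at 1.09 it was not called without responder 16 (adjusted p = 0.18). Klra4, an activating receptor of the Ly49 family, went the other way: 52.1 and 47.5 CPM against 73.0 to 105 CPM. It passed the adjusted p but not the fold threshold (-0.77 ± 0.13, adjusted p = 3.2e-04), and the groups did not overlap.

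**Figure D2:**
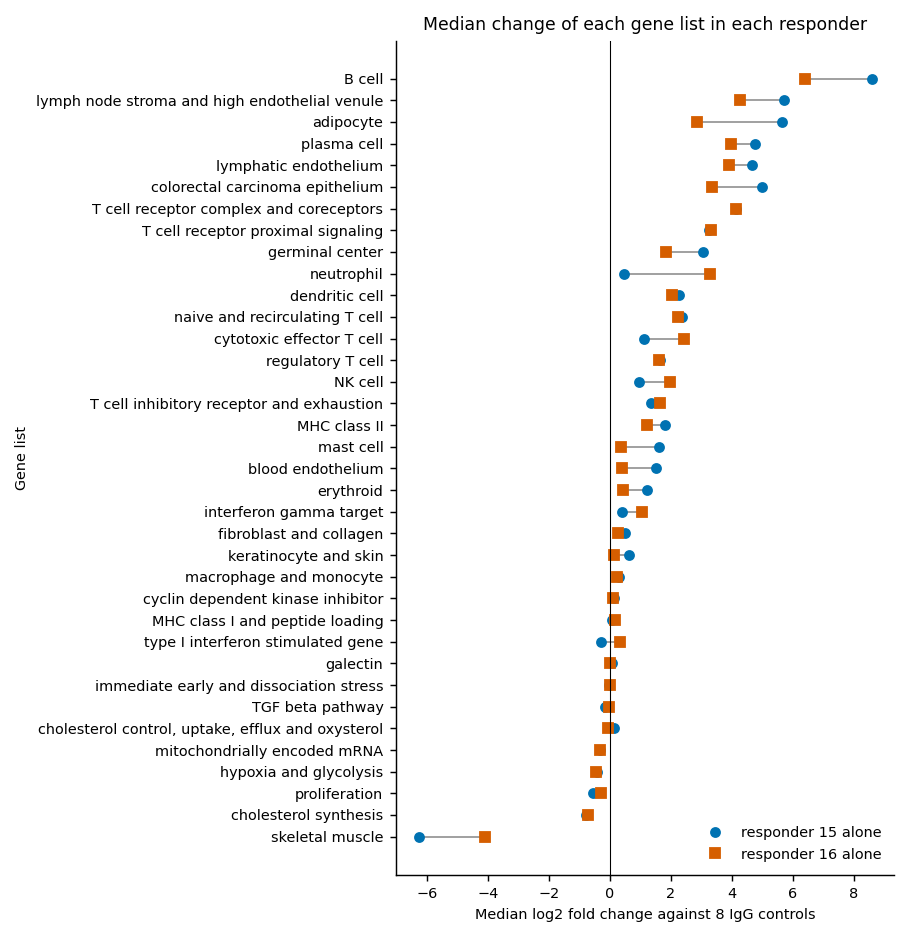
Median log2 fold change against the 8 IgG controls for each gene list, with responder 15 alone (circles) and responder 16 alone (squares), joined by a line. T cell receptor complex genes coincide (4.14 and 4.13), fat cell genes differ most in one direction (5.63 and 2.86) and neutrophil genes in the other (0.47 and 3.27).

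The B cell lineage showed the largest changes of all, in both responders and more so in responder 15. All 14 B cell genes were called higher, with a median log2 fold change of 7.91, and each was called in each responder alone (medians 8.58 and 6.40). Their summed level was 1782 CPM in responder 15, 468 CPM in responder 16, and 4.93 to 15.6 CPM in the controls. All 14 were higher in responder 15. The non-responders, at 6.38 to 13.6 CPM, lay inside the control range.

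Cd79a, a signaling chain of the B cell antigen receptor, was at 214 and 52.6 CPM against 0 to 0.779 CPM (9.05 ± 0.63). Fcmr, the receptor for IgM, had the largest log2 fold change of the genes ranked, 10.24 ± 0.65 (adjusted p = 1e-08), from 9 counts over all 8 controls to 74.6 and 16.0 CPM in the responders. At so few control counts the size of that change depends on the fit's prior more than its sign does. Cr2 and Fcer2a, complement and IgE receptors of mature follicular B cells, were at 162 and 132 CPM in responder 15 and at 29.7 and 29.2 CPM in responder 16.

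Antibody-secreting cell genes were closer between the responders. Of 10 plasma cell genes 7 were called higher (median 4.47). Jchain, which joins IgM and IgA into polymers, was at 382 and 269 CPM against 0.0281 to 2.6 CPM (8.39 ± 0.83, adjusted p = 1.6e-06). Mzb1, a chaperone of antibody assembly, was at 67.5 and 54.0 CPM against at most 0.467 CPM (8.57 ± 0.68). Sdc1 and Prdm1, which mark plasma cells but are also made by other cells of the tumor, were not called, and Xbp1 passed the adjusted p at a log2 fold change of 0.46.

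The 12 immunoglobulin constant regions were all called higher (median 8.55), with summed levels of 2664 and 1655 CPM against 10.2 to 33.7 CPM. All 43 heavy variable and all 52 kappa variable segments tested were called higher too, with medians of 8.00 and 8.01. For these segments the medians of the responders taken alone were 7.66 and 8.05 for heavy and 7.91 and 7.84 for kappa. These medians did not show the lead of responder 15 seen for the B cell surface genes. Summed levels were higher in responder 15, at 209 against 142 CPM for heavy and 414 against 298 CPM for kappa. By segment, 19 of 43 heavy and 30 of 52 kappa were higher in responder 15. Many segments were tested only because the responders had counts, so a call was close to fixed once a segment passed the filter.

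Germinal centers are the sites where B cells mutate and select their antibodies. Of 10 genes of the list 5 were called higher (median 2.75). Il21, the cytokine by which follicular helper T cells drive germinal centers, was at 1.06 and 0.759 CPM, with 2 counts over all 8 controls. Bcl6, the factor that defines the germinal center program and is also made elsewhere, was at 52.4 and 40.5 CPM against 23.2 to 51.6 CPM and was not called (0.45 ± 0.29, adjusted p = 0.31).

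Genes of lymphoid stroma and vessels, listed together with lymphotoxin genes such as Ltb, rose beside the lymphocyte genes. The counts of this list are therefore not of stroma and vessel genes alone. Of 11 genes tested on the list for lymph node stroma and high endothelial venules, 10 were called higher (median 5.21), and 11 were higher in responder 15. Glycam1, a mucin made by high endothelial venules, was at 184 and 30.6 CPM, while 5 controls had 0 counts and the highest had 1.02 CPM (9.49 ± 0.99, adjusted p = 2.6e-06). Ccl21a, the chemokine that brings CCR7-bearing cells into lymph nodes, was at 157 and 64.2 CPM against at most 0.600 CPM (9.29 ± 0.93). Cxcl13, which attracts B cells to follicles, was at 47.1 and 14.7 CPM against 0.141 to 0.684 CPM (6.54 ± 0.56), and Ltb, a lymphotoxin that organizes lymphoid tissue, at 117 and 44.4 CPM against 1.58 to 3.79 CPM (5.21 ± 0.35).

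Of 8 lymphatic endothelial genes 6 were called higher (median 4.43). Ccl21a is on this list as well as on the lymph node stroma list, so the lists overlap. Prox1, the transcription factor that defines lymphatic endothelium, was at 4.64 and 2.92 CPM against at most 0.273 CPM (5.00 ± 0.81, adjusted p = 1.9e-04). Stab2, a scavenger receptor of sinus endothelium in lymph node, liver and spleen, was at 9.81 and 5.06 CPM against at most 0.182 CPM (6.65 ± 0.69). Both were thus low in every control and present in both responders. Whether this RNA came from inside the tumor or from tissue beside it was not tested, since the RNA came from whole sections.

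**Figure D3:**
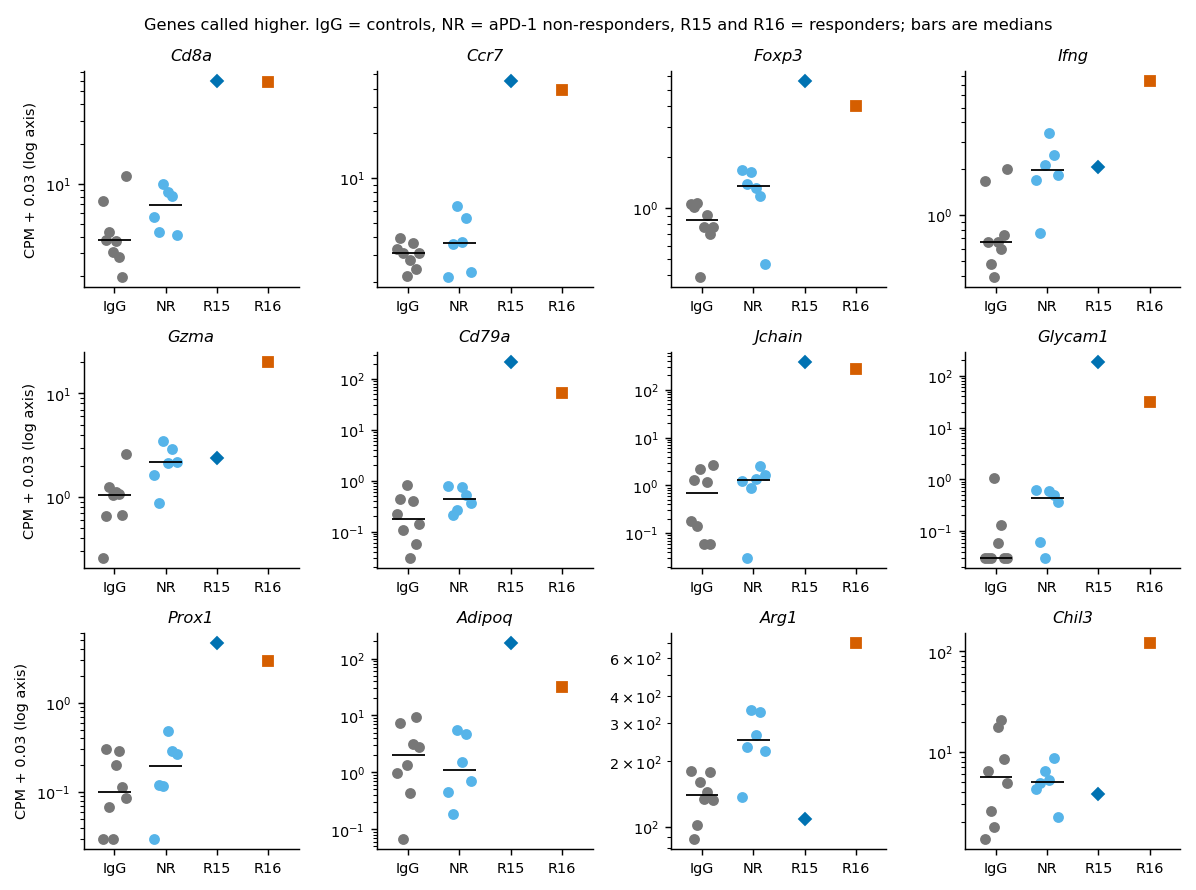
Level of 12 genes in each tumor (CPM plus 0.03, log axis) for 8 IgG controls, 6 aPD-1 non-responders and responders 15 and 16. For Cd8a, Ccr7, Cd79a, Jchain and Glycam1 both responders lie above all controls; for Gzma, Arg1 and Chil3 only responder 16 does.

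Of the genes called higher, the 10 of smallest p included Clec2i, Traf3ip3, Dgka, Trp53inp1, Ikzf3, Slamf6, Atp2a3, Tbc1d10c and Fcrla. Dgka, a kinase that dampens diacylglycerol signaling in T cells, was at 97.6 and 79.8 CPM against 5.40 to 10.7 CPM (3.66 ± 0.17, adjusted p = 7.3e-10). Clec2i, a lectin-like ligand, was at 38.5 and 20.4 CPM against 0.861 to 1.32 CPM (4.78 ± 0.21, adjusted p = 7.3e-10). Ikzf3, the transcription factor Aiolos of lymphocytes, was at 82.9 and 32.1 CPM against 0.534 to 1.69 CPM (5.96 ± 0.30).

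MHC class II genes, which present peptides to helper T cells, were above all controls in both responders. Of 10, 9 were called higher (median 1.58), 10 had both responders above all controls, and 10 were higher in responder 15. Without responder 15 the calls fell from 9 to 4, with a median of 1.20. H2-Aa, a chain of the classical molecule that B cells, dendritic cells and macrophages all make, was at 894 and 621 CPM against 151 to 509 CPM (1.52 ± 0.32, adjusted p = 0.0021), and it was not called without responder 15 (1.17, adjusted p = 0.13). H2-Ob, a chain of the peptide loading regulator H2-O that is restricted mainly to B cells, was at 179 and 50.2 CPM against 1.29 to 2.49 CPM (6.00 ± 0.33, adjusted p = 1.8e-09). H2-Oa and H2-DMb2 changed by 4.91 ± 0.45 and 4.59 ± 0.29, and Ciita, the coactivator that switches on the group, by 3.27 ± 0.33. H2-DMb1 was at 83.9 and 68.6 CPM against 40.5 to 63.5 CPM and passed only the adjusted p (0.62 ± 0.19). H2-DMb1 and H2-DMb2 are close copies whose reads may be divided between them.

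The promoters of these genes are shown because the members rose together and share a known control region. RefSeq (GRCm38.p6) gave promoters for 7 of the 10 genes. The letters ATTGG, the core of the Y box, were found on either strand in at least 1 promoter of 7 of the 7 genes, and in 37.4% of 32851 promoters of the same length. The letters AACNGATG, part of the X box, were found in 3 of the 7 genes and in 2.32% of all promoters. Each stretch below is 100 bases, 5′ to 3′ on the gene's strand, with either motif in capitals where it was found. The motifs do not overlap in these stretches.
H2-Aa, chr17:34287834-34287933, minus strand: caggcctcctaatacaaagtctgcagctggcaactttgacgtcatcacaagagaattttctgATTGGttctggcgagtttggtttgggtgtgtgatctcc
H2-Eb1, chr17:34305757-34305856, plus strand: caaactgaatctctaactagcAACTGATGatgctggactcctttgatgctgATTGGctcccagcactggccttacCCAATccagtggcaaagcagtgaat
H2-DMb1, chr17:34153081-34153180, plus strand: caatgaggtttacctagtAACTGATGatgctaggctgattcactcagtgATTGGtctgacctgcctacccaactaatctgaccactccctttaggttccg
H2-DMb2, chr17:34145099-34145198, plus strand: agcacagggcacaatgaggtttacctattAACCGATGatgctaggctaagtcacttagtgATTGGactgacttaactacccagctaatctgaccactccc
H2-Oa, chr17:34092269-34092368, plus strand: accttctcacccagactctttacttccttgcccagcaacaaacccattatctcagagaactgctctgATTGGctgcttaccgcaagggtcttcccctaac
H2-Ob, chr17:34238795-34238894, plus strand: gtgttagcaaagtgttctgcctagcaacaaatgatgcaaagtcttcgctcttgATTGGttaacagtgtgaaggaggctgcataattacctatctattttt

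The core ATTGG was found between 35 and 90 bases before the start in the 6 stretches, at 59 and 35 bases in H2-Eb1 and once in each of the others, for the strongly changed H2-Ob (57 bases) and the modestly changed H2-Aa (48 bases) alike. H2-DMb1 and H2-DMb2, with the same pair of motifs, changed by 0.62 and 4.59 on the log2 scale.

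Dendritic cell genes rose in both responders. Of 12, 8 were called higher (median 2.29). Xcr1, the chemokine receptor of the cross-presenting subset, was at 7.72 and 5.65 CPM against 0.450 to 1.80 CPM (2.73 ± 0.40, adjusted p = 7e-05). Flt3, the growth factor receptor of dendritic cells, was at 13 and 10.9 CPM against 0.418 to 1.61 CPM (3.41 ± 0.38). Siglech, a lectin of plasmacytoid dendritic cells, was at 8.22 and 5.65 CPM against 0 to 0.738 CPM (4.5 ± 0.65, adjusted p = 6.5e-05). Ccl17, Fscn1 and Bst2 were not called.

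Macrophage and monocyte genes changed little by their median but differed from gene to gene. Of 12, 4 were called higher (median 0.33), with 1 without responder 15, 2 without responder 16 and 2 without the filter on low counts. Adgre1, the F4/80 antigen, was at 105 and 96.5 CPM against 16.3 to 108 CPM, where the lowest control was tumor 1, and it was not called (0.29 ± 0.51). Ly6c2, a marker of inflammatory monocytes, was at 32.3 and 66.6 CPM against 1.71 to 11.4 CPM (2.98 ± 0.47, adjusted p = 1.5e-04). Cd163, a scavenger receptor of tissue-resident macrophages, was at 62.6 CPM in responder 15 and 12.9 CPM in responder 16 against 0.540 to 9.73 CPM (3.46 ± 1.00, adjusted p = 0.019), and was not called without responder 15 (1.84, adjusted p = 0.55).

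The 10 called genes with the widest lead of responder 16 were Chil3, Gzma, Clec7a, Atp6v0d2, Arg1, F10, Acod1, Gzmb, Il1rn and Klrc1. This ranking used the responders' own difference and is a description. Arg1, the arginase of suppressive myeloid cells, was at 109 CPM in responder 15, 703 CPM in responder 16, and 87.7 to 180 CPM in the controls. Chil3, a chitinase-like protein of alternatively activated macrophages, was at 3.81 and 122 CPM against 1.33 to 20.7 CPM. Clec7a, the beta-glucan receptor Dectin-1, was at 23.4 and 169 CPM against 15.1 to 45.8 CPM. Without responder 16 the log2 fold changes of Arg1, Chil3 and Clec7a reversed, to -0.42, -1.12 and -0.46, and none was called. Acod1, the enzyme that makes itaconate in activated macrophages, was at 17.6 and 59.3 CPM against 7.81 to 18.4 CPM.

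Neutrophil genes also divided. Of 9 tested, 6 were called higher (median 2.56), with 1 call in responder 15 alone and 6 in responder 16 alone. S100a8, a calprotectin chain, was at 0.325 CPM in responder 15, inside the control range of 0.0574 to 0.844 CPM, and at 4.25 CPM in responder 16, and it was not called without responder 16 (0.16). Cxcr2, the receptor that draws neutrophils to chemokines, was similar in both, at 4.85 and 4.58 CPM against 0.0547 to 0.330 CPM (5.06 ± 0.42, adjusted p = 1.6e-07). Cxcr2 therefore moved apart from the rest of its list.

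Some interferon gamma targets were higher. Of 18, 4 were called higher (Irf8, Gbp5, Cd274 and Ido1), where 14.3% of all genes tested were. The adjusted p was passed in that direction by 9 (and by 17.7% of all genes tested), and the median was 0.90. Without responder 16 the calls fell to 2 and the median to 0.40, and without IgG tumor 8 the calls rose to 8. Cd274, which encodes PD-L1, was at 70.9 and 150 CPM against 34.2 to 62.5 CPM (1.25 ± 0.26, adjusted p = 0.0017). Gbp5, a guanylate binding protein, was at 79.1 and 137 CPM against 34.7 to 67.1 CPM (1.19 ± 0.25, adjusted p = 0.0020). Neither was called without responder 16, Cd274 at 0.56 (adjusted p = 0.24) and Gbp5 at 0.69 (adjusted p = 0.15), and Ido1 was not called without responder 15 (1.37, adjusted p = 0.49). Irf8, a transcription factor of myeloid and B cells, had the most significant change of the list, at 138 and 93.8 CPM against 22.9 to 49.5 CPM (1.89 ± 0.22, adjusted p = 7.3e-06).

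The summed level of the interferon gamma targets was 3412 CPM in responder 15 and 4997 CPM in responder 16. The controls ranged from 1920 to 3472 CPM and the non-responders from 2966 to 4806 CPM, so both overlapped responder 15. For Cxcl9, too, the non-responders lay close to the responders. Cxcl9, the chemokine for CXCR3-bearing T cells, was at 136 and 208 CPM in the responders and 119 to 260 CPM in the non-responders, against 56.3 to 126 CPM in the controls. Its log2 fold change from the controls was 0.96 ± 0.29 (adjusted p = 0.023), and from the non-responders 0.00 ± 0.32. Cxcl9 passed the fold threshold too when IgG tumor 8 was left out, at 1.05, and when IgG tumor 5 was left out, at 1.00.

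No call was made among type I interferon stimulated genes or MHC class I genes. For the 14 type I genes edgeR gave 0 calls and 0 genes with an unadjusted p below 0.05, DESeq2 gave 0 calls, and the median was 0.14. Ifit1, an RNA-binding antiviral protein, was at 90.6 and 143 CPM against 69.8 to 180 CPM. For 13 genes of MHC class I and peptide loading, edgeR and DESeq2 gave 0 calls, with 5 genes at an unadjusted edgeR p below 0.05 and a median of 0.18, while Tap1 and Nlrc5 passed the adjusted p at 0.72 ± 0.20 and 0.93 ± 0.24. Nlrc5, the coactivator of class I genes, was called without IgG tumor 1 (1.02). B2m, the light chain of class I molecules, was at 2195 and 2353 CPM against 1596 to 3066 CPM, and so inside the control range.

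**Figure D4:**
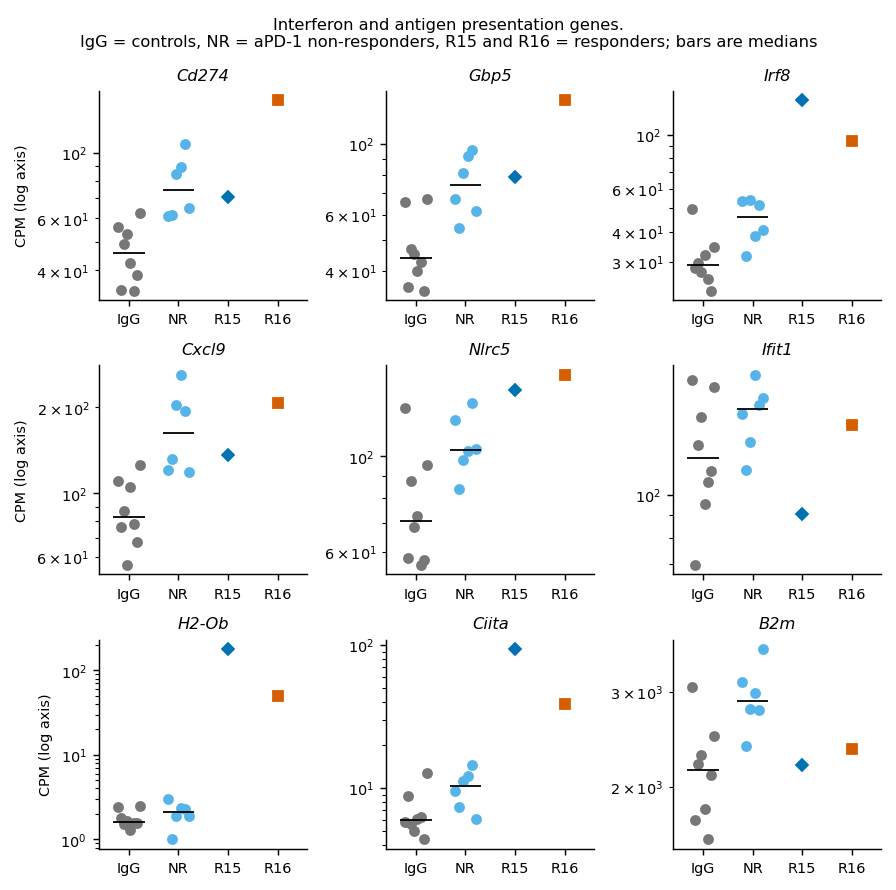
Level of 9 interferon and antigen presentation genes in each tumor (CPM, log axis) for 8 IgG controls, 6 aPD-1 non-responders and responders 15 and 16. H2-Ob and Ciita separate the responders from all other tumors, whereas the responders lie within the range of the non-responders for Cxcl9 and within that of the controls for B2m.

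Genes of fat cells were high in both responders and far more so in responder 15. All 11 tested were called higher (median 5.00), with 11 calls in responder 15 alone (median 5.63) and 3 in responder 16 alone (median 2.86). The summed level was 3801 CPM in responder 15, 678 CPM in responder 16, 44.5 to 230 CPM in the controls and 46.1 to 170 CPM in the non-responders. Adipoq, the hormone adiponectin, was at 189 and 31.0 CPM against 0.0374 to 9.17 CPM (5.12 ± 1.03, adjusted p = 0.0016), and was not called without responder 15 (3.23, adjusted p = 0.18). Of the 10 called genes with the widest lead of responder 15, Plin4 and Lep are fat cell genes of this list. Hp, which encodes haptoglobin, was at 1249 and 126 CPM against 4.87 to 83.1 CPM, and Nnat, an imprinted gene, was at 169 and 9.87 CPM against 1.95 to 6.86 CPM.

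Epithelial genes behaved in the same order. Of 11 tested, 7 were called higher (median 4.39) and all 11 were higher in responder 15. Krt8 and Krt18, the paired keratins of simple epithelium, were at 31.9 and 33.3 CPM in responder 15 and at 13.1 and 11.3 CPM in responder 16, against at most 1.37 and 1.80 CPM in the controls. Krt18 was not called without responder 15 (4.11, adjusted p = 0.073). Epcam, an adhesion molecule of epithelium, was at 10.6 and 5.31 CPM against 0.0749 to 0.942 CPM (4.01 ± 0.63, adjusted p = 1.6e-04). The control tumors hardly expressed these genes. Keratinocyte genes gave 1 call of 10, Sfn, which was lost without responder 15, with Krt14 at 4.32 and 3.12 CPM inside the control range of 0.690 to 22.8 CPM.

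Blood vessel genes were higher mainly in responder 15: 5 of 12 were called (median 1.10), with 6 edgeR calls in responder 15 alone and 0 in responder 16 alone, where 1 gene had an unadjusted p below 0.05. Without IgG tumor 2 the calls rose to 9. Pecam1, the adhesion molecule CD31, was at 189 and 109 CPM against 25.0 to 77.3 CPM (1.66 ± 0.40, adjusted p = 0.0055), and was not called without responder 15 (1.13, adjusted p = 0.27). Of 16 fibroblast and collagen genes, 5 were called higher, 4 in responder 15 alone and 1 in responder 16 alone. Among the 5 was Thy1, which T cells also carry, at 124 and 81.9 CPM against 10.6 to 29.1 CPM (2.52 ± 0.38, adjusted p = 9.6e-05). Col5a1 and Col6a1 passed the adjusted p in the lower direction (-0.64 ± 0.21 and -0.60 ± 0.21). Skeletal muscle genes gave 0 calls in edgeR and DESeq2 and 0 genes at an unadjusted p below 0.05. IgG tumor 6 alone held 554 CPM of Myh4 against at most 3.36 CPM in every other tumor compared.

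The part that tissue beside the tumor had in the lymphoid genes was not tested. Responder 15 held 5.6 times the fat cell level of responder 16 and 3.81 times its B cell level, but 1.07 times its T cell receptor complex level.

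Far fewer genes were lower, and 82 of the 117 had a control median of at least 1 CPM. Cdkn2b, which encodes the cell cycle inhibitor p15, was both the lowest by fold change of the genes ranked and the first by p. It was at 8.69 and 7.96 CPM, against 18.4 to 35.0 CPM in the controls with a median of 26.5 and 18.7 to 31.1 CPM in the non-responders, so the responders stood below all 14 other tumors. The log2 fold change was -1.67 ± 0.26 (adjusted p = 1.3e-04). Its neighbor Cdkn2a was at 1.66 and 1.63 CPM against 1.57 to 3.18 CPM and was not called (-0.58 ± 0.28, adjusted p = 0.16), and Gm12606, a noncoding gene also on chromosome 4, was called lower at -1.55 ± 0.51 (adjusted p = 0.036), a call that was lost without responder 15 (-1.70) and without responder 16 (-1.53).

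S100a4, a calcium-binding protein of motile cells, was at 163 and 145 CPM against 263 to 416 CPM (-1.14 ± 0.19, adjusted p = 3.1e-04). Lgals1, the secreted galectin-1, was at 1016 and 1171 CPM against 1852 to 2732 CPM without overlap. Its log2 fold change of -0.95 ± 0.17 (adjusted p = 4.8e-04) passed the p and missed the fold threshold, which it passed without IgG tumor 1 (-1.02) or without responder 16 (-1.12). The other 6 galectins tested did not pass.

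Mme, the membrane peptidase neprilysin, was at 79.7 and 113 CPM against 173 to 385 CPM (-1.62 ± 0.36, adjusted p = 0.0032), and was not called without responder 15 (-1.47, adjusted p = 0.092). Cx3cr1, the fractalkine receptor of monocytes and macrophages, was at 44.8 and 17.0 CPM against 61.2 to 121 CPM (-1.40 ± 0.39, adjusted p = 0.014), and it was not called without responder 16 (-0.92, adjusted p = 0.18). The transcription factor genes Pitx1, Hic1, Osr2 and Dmrta2 were called lower, at log2 fold changes of -1.53, -1.01, -1.02 and -1.01. Without either responder Pitx1 was not called (adjusted p = 0.15 and 0.054). Psph, the last enzyme of serine synthesis, was at 47.7 and 58.2 CPM against 84.9 to 141 CPM (-1.03 ± 0.20, adjusted p = 0.0010). Hic1, Osr2, Dmrta2 and Psph lay near the fold threshold and missed it without some single tumors. Their changes were -0.99, -0.97 and -0.98 for Hic1, Osr2 and Dmrta2 without IgG tumor 3, -0.98 and -0.96 for Hic1 and Osr2 without IgG tumor 6, -0.99 for Osr2 without IgG tumor 4, and -0.98 for Dmrta2 without IgG tumor 1. Psph also missed it without IgG tumor 2, 5 or 7, at -0.96 without tumor 7, and Hic1, Osr2 and Psph were at -0.99, -0.82 and -0.96 without responder 15. Capn6, Cdh26, Strc and Pcdh10 were also among the 10 of lowest fold change, at -1.66, -1.58, -1.54 and -1.45, and without responder 15 none of these 4 was called (adjusted p = 0.072 to 0.34). Besides Cdkn2b and S100a4, the 13 genes called lower in each responder alone included Dusp14, Hoxa11os, Dmrta2, Atg9b, Hkdc1 and Shank2.

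**Figure D5:**
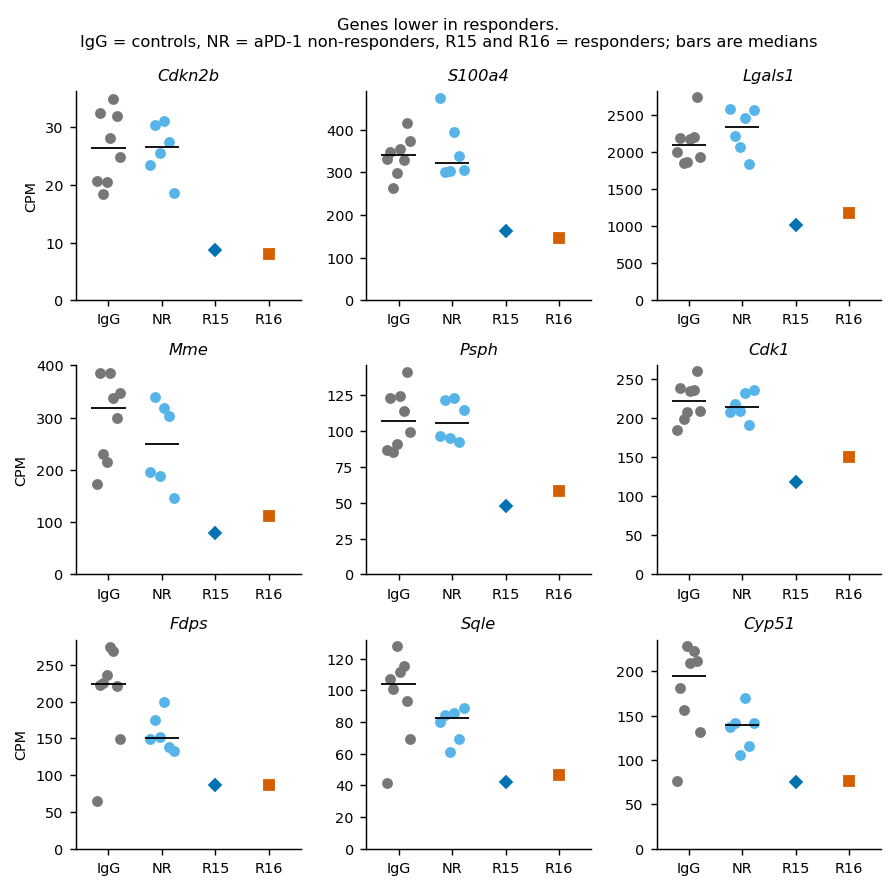
Level of 9 genes in each tumor (CPM, linear axis from 0) for 8 IgG controls, 6 aPD-1 non-responders and responders 15 and 16. Both responders lie below all controls for Cdkn2b, S100a4, Lgals1, Mme, Psph and Cdk1, and IgG tumor 1 lies near them, at 64.6, 41.7 and 76.1 CPM, for Fdps, Sqle and Cyp51.

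Cholesterol synthesis genes were lower in the responders than in most controls. Of 19 enzymes 3 were called lower (Fdps, Cyp51 and Sqle), 6 passed the adjusted p in that direction (5.17% of all genes tested did), and the median was -0.66. Fdps, which makes farnesyl diphosphate, was at 87.1 and 86.7 CPM against a control median of 224 CPM (-1.26 ± 0.37, adjusted p = 0.020). IgG tumor 1 was at 64.6 CPM, below both responders, and the other 7 controls were at 150 to 274 CPM. Sqle, the rate-limiting squalene epoxidase, was at 41.9 and 46.8 CPM, against 41.7 CPM in IgG tumor 1 and at most 128 CPM in the rest (-1.11 ± 0.30, adjusted p = 0.012). IgG tumor 1 was the tumor with the high mitochondrial share, and leaving it out raised the enzymes called lower from 3 to 7. Fdps and Sqle were not called without responder 15 (-1.34 and -1.11) or without responder 16 (-1.31 and -1.25). Leaving out responder 16 gave 2 enzymes, and leaving out responder 15 gave 0 edgeR calls, with 6 enzymes lower at an unadjusted p below 0.05. The median of the list was -0.80 in responder 15 alone and -0.71 in responder 16 alone. The non-responders lay between, with 133 to 200 CPM of Fdps, and responders against non-responders did not pass for it (-0.86 ± 0.37, adjusted p = 0.12).

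Of 17 genes of cholesterol control, uptake, efflux and oxysterol signaling, 5 were called higher (3 in responder 16 alone), and the median was 0.01. Abca1, which exports cholesterol, was at 198 and 169 CPM against 36.6 to 90.4 CPM (1.52 ± 0.30, adjusted p = 0.0013), and narrowly missed the call without responder 15 (1.33, adjusted p = 0.055). Nr1h3, the sterol-sensing receptor LXR alpha that turns on Abca1, was at 20.6 and 12.1 CPM against 2.40 to 5.18 CPM (2.24 ± 0.34, adjusted p = 1.1e-04). Gpr183, the oxysterol receptor that guides B cells and T cells within lymphoid tissue, was at 21.9 and 14.9 CPM against 5.93 to 9.08 CPM (1.39 ± 0.18, adjusted p = 1.8e-05). The list moved both ways, with 9 of the 17 changes above 0 and the lowest at -0.92. In the lower direction 2 genes passed the adjusted p (5.17% of all genes tested did), and 0 were called.

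Proliferation genes were not called in either direction by edgeR or DESeq2 (0 of 14, 4 at an unadjusted edgeR p below 0.05). All 14 had a log2 fold change below 0, from -0.72 to -0.17 (median -0.42). Cdk1, Aurkb and Ccnd1 passed the adjusted p in the lower direction, as 5.17% of all genes tested did. Cdk1, the kinase of mitosis, was at 119 and 150 CPM against 185 to 261 CPM (-0.72 ± 0.14, adjusted p = 0.0012). Mki67, the usual marker of cycling cells, was at 319 and 394 CPM against 366 to 507 CPM and did not pass (-0.30 ± 0.15, adjusted p = 0.18). Of 14 hypoxia and glycolysis genes, Pfkfb3 alone was called, and higher, at 127 and 104 CPM against 25.3 to 68.6 CPM (1.38 ± 0.25, adjusted p = 6.8e-04), while the median of the list was -0.33. Without IgG tumor 3, 2 genes of the list were called. Of 14 genes of the TGF beta pathway, Ltbp2 was called higher (2.18 ± 0.56, lost without responder 15) and Tgfb3 passed the adjusted p in the lower direction (-0.63 ± 0.15).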

How the data were processed

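RNA of 16 MC38 tumors, each from a separate mouse, was sequenced in paired reads of 150 bases. The authors deposited 1 table of expected counts per gene, made with STAR 2.6 and RSEM 1.3.0 on GRCm38 with the Ensembl 91 annotation, per the study's methods and the submitters' processing notes. Of its values 7.83% were not whole within 1e-06, and all were rounded. The table held 53465 genes and 92 spike-in rows, which had at most 185 counts in a tumor and were left out. Gene names were added from GENCODE release M21. Every column was used. Some named genes are not reported here. Samples were grouped by their titles, and no pair of the 120 pairs of libraries agreed within sampling noise (lowest chi-square per degree of freedom 15.2).

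The 3 groups were fitted together with edgeR 4.0.16 (R 4.3.3, TMM scaling, filterByExpr, robust quasi-likelihood test) without covariates, and the contrast was responders minus IgG controls. P-values were adjusted over all 18251 genes by the Benjamini-Hochberg method. The spread of the responders rested on 2 tumors and shared its estimate with the other groups. Standard errors were the log2 fold change divided by the root of F. CPM values used TMM-scaled library sizes. Total counts between 26603497 and 38031440 set the precision, and intervals of single counts were not computed. Levels are compared between tumors for 1 gene at a time.

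Genes were named if they belonged to the gene lists, or were among the 10 of largest or smallest log2 fold change or smallest p in each direction, or the 10 of widest lead of either responder. The rankings took called genes that averaged 100 counts or more. Those by fold change and p also required that the responders did not overlap the 8 controls, and antigen receptor segments were left out of them. The members and lists were chosen with earlier results of these data known. Genes named beyond the rule (CT010467.1, Hkdc1 and Shank2) were chosen after their values were seen. On simulated counts of this design over 17819 genes, 85% of genes changed 4-fold and 52% of those changed 2-fold passed the adjusted p. Of the genes that passed, 3.52% were unchanged. The fold threshold was not applied there and the changed genes were drawn above a minimum mean count, so these shares do not describe the calls. Alternatives were DESeq2 1.42.0, median-of-ratios scaling, no filter on low counts, a stricter filter (10 counts or more in 8 tumors or more), a model restricted to the 10 tumors compared, and leaving out each tumor. Leaving out IgG tumors 1 and 3 together was added after seeing the data. Dixon's test of the controls covered the values printed in the text, a set narrowed after a first, longer output.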

Additional observations from a re-analysis of the deposited data

Results flagged for a closer look

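Among 84 values tested with Dixon's ratio over the 8 IgG controls, 16 had a highest or lowest control that stood apart from the other 7, where chance gives about 1 in 20. IgG tumor 1 had a mitochondrial share of 7.60%, the lowest Adgre1 at 16.3 CPM, and the highest Irf8 and Dgka at 49.5 and 10.7 CPM. IgG tumor 3 had 20.4% of its counts on CT010467.1.

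IgG tumor 4 had the highest control level of several B cell and lymphoid stroma genes, namely 15.6 CPM summed over the B cell list, 0.120 CPM of Fcmr and 1.02 CPM of Glycam1, and of Cxcr2 at 0.330 CPM. IgG tumor 8 had the highest control level of T cell genes, namely 36.6 CPM summed over the T cell receptor complex list, 2.6 CPM of Gzma, 3.79 CPM of Ltb and 1.69 CPM of Ikzf3, and of H2-Aa at 509 CPM. IgG tumor 6 stood apart for Myh4 at 554 CPM, and IgG tumor 7 for Lgals1 at 2732 CPM. The highest control of Gzma lay above responder 15. For the other genes called higher named here, both responders lay above the control that stood apart.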

How the results depend on the processing

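The count of genes called higher, 2612, and lower, 117, stayed within 1.5 times under DESeq2 (2562 and 155), another scaling, both other filters and a model of the 10 tumors alone. Leaving out 1 tumor gave 1204 to 2724 genes higher and 39 to 225 lower, the lowest of both without responder 15 and the highest of both without responder 16. Without IgG tumor 1, 203 genes were lower. Of the genes lower in the full comparison, 17 of 117 were called without responder 15 and 66 of 117 without responder 16. Of 225 named genes called, 69 lost the call without responder 15 and 43 without responder 16, at most 6 without any single control, and 1 of 223 with DESeq2. The 3 reversals came from leaving out responder 16: Arg1 fell to -0.42, Chil3 to -1.12 and Clec7a to -0.46 on the log2 scale, against 2.25, 3.86 and 2.37 without responder 15. The median of the type I interferon list reversed likewise, to -0.29, against 0.32 without responder 15. The difference in Cd8a between the group means ranged from 54.2 to 55.6 CPM when 1 tumor was left out, and without a responder the exact permutation test of 1 against 8 could not go below p = 0.111. Under the stricter filter (10 counts or more in 8 tumors or more), the plasma cell, germinal center and lymphatic lists had medians of 2.77, 0.49 and 3.02. The cause of these differences was not tested. No paired analysis was possible because each mouse number was used once, so the groups share none. Having 2 responders and the confounding of antibody with response limit every contrast, and calls on genes near 0 in the controls depend on few counts.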

Other observations

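Mast cell and red blood cell genes were not described above. Of 10 mast cell genes 2 were called higher, near the 14.3% of all genes tested. The list moved both ways, with 8 of the 10 changes above 0 and a range from -1.37 to 1.59. Kit, the receptor for stem cell factor, was at 16.8 and 11 CPM against 3.52 to 8.18 CPM (1.41 ± 0.30, adjusted p = 0.0025). Hdc, which makes histamine, was at 4.64 and 4.25 CPM against 0.988 to 2.57 CPM (1.16 ± 0.29, adjusted p = 0.0074). Neither was called without responder 15 (1.00 and 1.02). The connective tissue proteases Mcpt4 and Cma1 were above all controls in responder 15 only, at 25.2 and 25.7 CPM against at most 12 and 11.8 CPM, and were not called.

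The 13 mitochondrially encoded genes, 10 immediate early and stress genes and 6 red blood cell genes gave 0 calls in edgeR, with 0, 2 and 0 genes at an unadjusted edgeR p below 0.05. DESeq2 gave 0 calls for the mitochondrial and red blood cell genes and 1 for the stress genes, Hspa1a (-1.55, adjusted p = 0.013). Their medians were -0.24, 0.03 and 0.93. Hspa1a, a heat shock protein, had the lowest change of the stress genes, at 9.11 and 7.76 CPM against 10.4 to 60.8 CPM (-1.53 ± 0.57, adjusted p = 0.062).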
